A study of Mus musculus with 12 samples.

Results

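The mitochondrial ribosomal protein genes are the protein-coding genes whose symbol begins with Mrpl or Mrps followed by a number. The deposited RNA-seq tables of C2C12 cells, a mouse myoblast line, hold 73 of them among 10289 genes listed in any of the 3 tables, of which 9266 were protein-coding. The members divide by name into 44 Mrpl genes and 29 Mrps genes. The rule uses name and gene type alone, although the family was picked for description with earlier results of these data known, and a gene appears in a table only where it passed the authors' limit on the false discovery rate in that comparison.

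The study used stable C2C12 lines that overexpressed green fluorescent protein (GFP), METTL3 or METTL14 from a lentiviral vector, all under puromycin selection. METTL3 and METTL14 form the complex that writes N6-methyladenosine (m6A) on messenger RNA. The GFP, METTL3 and METTL14 lines were sampled as myoblasts in growth medium (GM, day 0), and the GFP line also as myotubes after 4 days in differentiation medium (D4), with 2 RNA-seq libraries in each of these 4 groups. A table for D4 against GM, one for METTL3 and one for METTL14 were used here. All of these comparisons share the GFP libraries in GM, so they are not independent. The METTL14 samples carry D0 in their titles and D4 in another label, and the title was followed. Each line is an overexpression model in 1 cell line that kept its own METTL3 and METTL14 genes.

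Mitochondria translate the few proteins encoded in their own genome on a ribosome built from mitochondrial ribosomal RNA and proteins encoded in the nucleus. Those proteins are made in the cytosol, imported, and joined to a large subunit, which forms peptide bonds, or a small subunit, which reads the messenger RNA. All products of this ribosome in mammals are core subunits of the respiratory chain or the ATP synthase, so muscle cells depend on it for oxidative metabolism. By gene name Mrpl stands for the large and Mrps for the small subunit, although the products of Mrps18a and Mrps30 are known to sit in the large subunit.

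The value described for each gene is the authors' mean normalized count, a pooled mean over libraries, which has no SD and no value per library. For a gene in more than 1 table, the mean was the same in each, and the tables do not name the libraries it was taken over. It was therefore not read as the level of any one line or stage. For comparisons between genes the mean was divided by the length of the gene's merged exons in kilobases (kb). Since no value per library was used, no test between conditions or genes was made, library depth was not analysed here, and levels are given as description.

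Marker genes were looked up for the labelled cell line. A gene is listed only where it passed the authors' limit in a comparison, so this lookup cannot test the label. Of the 5 myoblast markers all were listed in at least 1 table, with mean normalized counts from 21.7 for Pax7 to 24157 for Des, and all 5 myotube markers were listed, from 2124 for Myog to 53546 for Acta1. None of the 6 markers of leukocytes, endothelium, epithelium or macrophages was listed in any table, which leaves them without a value here.

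The upstream sequence is shown first for the 3 members listed for METTL3 or METTL14 as well as for D4. It is then shown for 4 members that carry the motifs or the shared start region described later. Each line gives the last 100 bases before the RefSeq transcription start in build GRCm38.p6, 5′ to 3′ on the gene's strand, and capitals mark matches to the cores of NRF1 (GCATGCGC), ETS factors (CCGGAAG) or YY1 (AAGATGGC) on either strand.
Mrps27, chr13:99344686-99344785, plus strand: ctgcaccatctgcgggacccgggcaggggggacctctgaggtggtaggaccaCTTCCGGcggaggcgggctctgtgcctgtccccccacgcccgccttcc
Mrpl34, chr8:71464826-71464925, plus strand: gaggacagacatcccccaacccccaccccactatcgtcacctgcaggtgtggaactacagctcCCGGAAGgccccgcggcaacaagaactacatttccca
Mrpl47, chr3:32736756-32736855, minus strand: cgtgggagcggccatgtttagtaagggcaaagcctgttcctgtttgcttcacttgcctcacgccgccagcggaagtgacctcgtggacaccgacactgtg
Mrpl32, chr13:14613038-14613137, minus strand: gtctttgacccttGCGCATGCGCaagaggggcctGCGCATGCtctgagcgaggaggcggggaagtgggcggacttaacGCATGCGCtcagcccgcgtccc
Mrpl9, chr3:94443236-94443335, plus strand: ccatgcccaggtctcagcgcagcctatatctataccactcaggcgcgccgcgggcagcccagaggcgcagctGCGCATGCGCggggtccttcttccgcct
Mrpl36, chr13:73330909-73331008, plus strand: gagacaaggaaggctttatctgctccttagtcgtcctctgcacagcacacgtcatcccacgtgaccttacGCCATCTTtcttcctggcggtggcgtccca
Mrpl46, chr7:78783090-78783189, minus strand: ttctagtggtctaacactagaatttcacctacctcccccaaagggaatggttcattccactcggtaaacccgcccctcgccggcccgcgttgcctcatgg

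The D4 table asks which RNAs differed between myotubes and myoblasts of the GFP line. It listed 73 of the 78 family members annotated in GENCODE M21, or 93.6%, where 40.1% of all annotated protein-coding genes were listed. All 29 annotated Mrps genes were in it, and 44 of 49 Mrpl genes, or 89.8%. The 5 members that were not listed were Mrpl41, Mrpl44, Mrpl48, Mrpl53 and Mrpl57, all named for the large subunit, and they have no value here. The means of all 73 listed members were 100 or more, and the part of read count in the listing was not tested.

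For METTL3, 3 of the 78 members were listed, or 3.85%, beside 7.8% of all protein-coding genes. These were Mrps27, Mrpl34 and Mrpl47. Mrps27, whose product belongs to the pentatricopeptide repeat proteins, had a mean normalized count of 409 and spans chr13:99344786-99415562 on the plus strand. Mrpl34, the counterpart of bacterial bL34, had a mean normalized count of 365 and spans chr8:71464959-71465747 on the plus strand. Mrpl47, the counterpart of bacterial uL29, had a mean normalized count of 333 and spans chr3:32725397-32737605 on the minus strand. All 3 means lay below the members' median of 491. Only Mrps27 was listed for METTL14, which is 1.28% of the family beside 4.91% of all protein-coding genes. Mrps27 was thus the 1 member found in all 3 tables. The share of all genes found in all 3 was not computed, and the comparisons share the GFP libraries in GM. The listed shares for METTL3 and METTL14 were below the background, and for the 75 and 77 members that were not listed the tables used here do not show whether they changed.

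Across the members the mean normalized count ran from 127 for Mrps34 to 1243 for Mrpl12, a 9.76-fold range, with a median of 491 and quartiles of 353 and 662. The third quartile was 1.88 times the first, where it was 7.07 times the first over all listed protein-coding genes. Every one of the 73 members had a mean of at least 100, as had 7605 of the 9266 listed protein-coding genes. The members thus covered a narrow band of counts with neither very low nor very high genes.

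Per kb of merged exons the members ran from 42.6 for Mrps35 to 812 for Mrpl12, a 19-fold range, with a median of 169 and quartiles of 99.2 and 320. All listed protein-coding genes had a median of 115 per kb, with quartiles of 39.2 and 273. Of the members 50 lay above that median, 24 lay above the upper quartile and 0 below the lower one, and the median member stood at percentile 61.8. The ratio of the medians was 1.48, and 1.11 when only genes with a mean of 100 or more were compared, a limit that every member passed and 7605 of the listed protein-coding genes did. This order depends on length, since the members' merged exons are shorter in total (median 2533 bases against 4538). Without the division by length, the members' median of 491 was 0.9 times the 545 of all listed protein-coding genes.

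**Figure D1:**
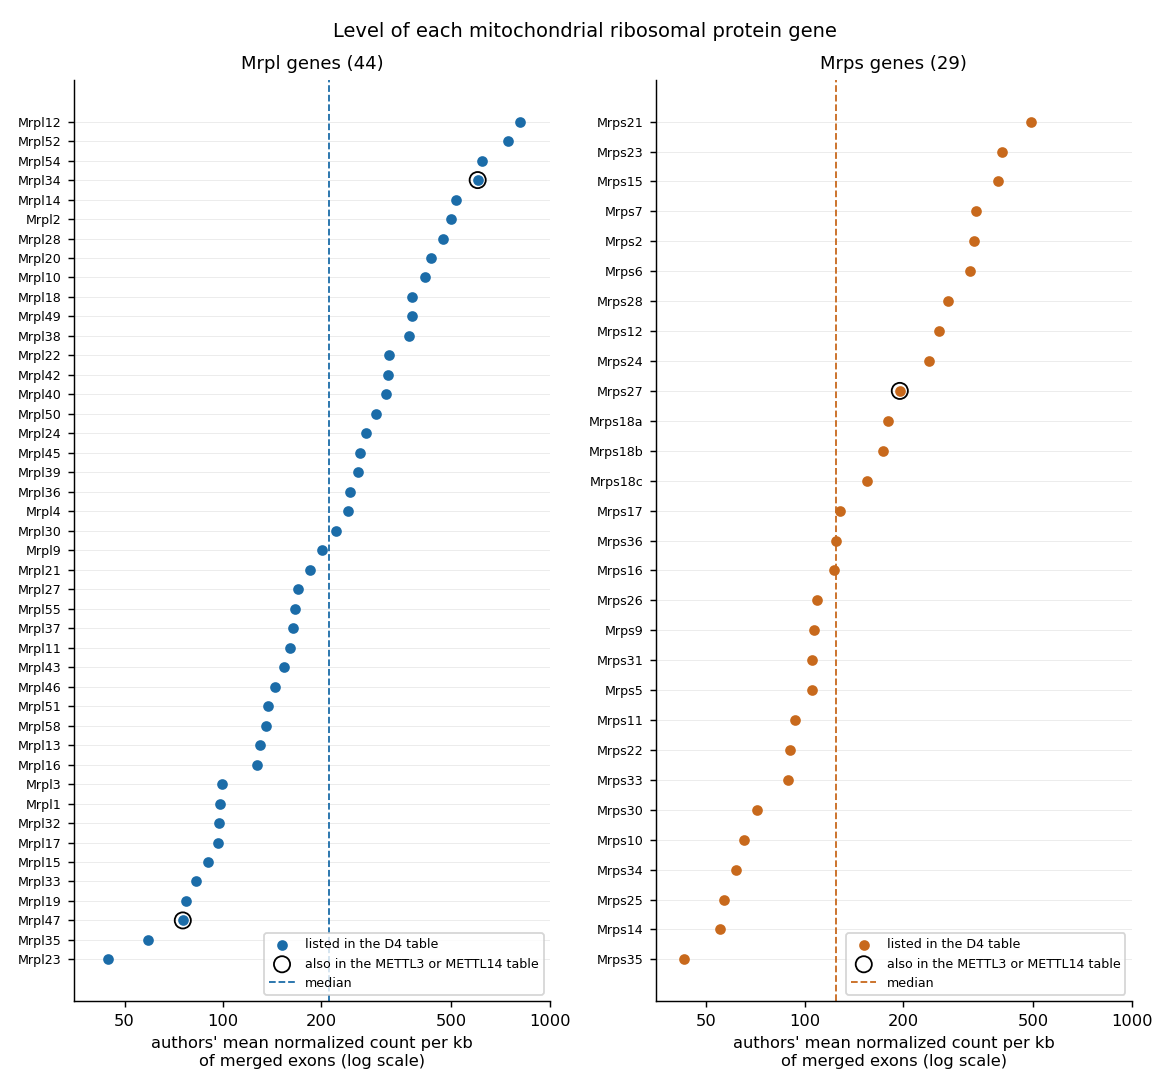
Authors' mean normalized count per kb of merged exons (log scale) of each mitochondrial ribosomal protein gene, 1 point a gene, with Mrpl and Mrps genes in separate panels and the median of each as a line. Mrpl12 stands highest at 812 and Mrps35 lowest at 42.6, and ringed points mark the members also listed for METTL3 or METTL14.

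Among the Mrpl genes the highest value per kb was that of Mrpl12, at 812. Its product, the counterpart of bacterial L7/L12, forms the stalk that binds translation factors, and the gene lies at chr11:120484613-120489065 on the plus strand. Mrpl52 followed at 747 per kb, Mrpl54 at 620, Mrpl34 at 601 and Mrpl14 at 517. Mrpl52 and Mrpl54 encode proteins with no bacterial counterpart, while Mrpl34 and Mrpl14 encode counterparts of bacterial proteins. Mrpl10, which anchors the stalk, was at 415 per kb, and Mrpl11 at the stalk base was at 160. The stalk genes were therefore not at 1 level: Mrpl12 was also above both before division by length, at 1243 against 709 for Mrpl10 and 518 for Mrpl11.

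The lowest Mrpl genes per kb were Mrpl23 at 44.6, Mrpl35 at 58.9, Mrpl47 at 75.4, Mrpl19 at 77.1 and Mrpl33 at 82.8. Mrpl23, Mrpl22 and Mrpl24 encode counterparts of bacterial proteins around the exit of the peptide tunnel, and the latter pair were at 322 and 274 per kb. Mrpl45, which helps to hold the ribosome at the inner membrane, was at 262 per kb. Mrpl58, a peptidyl-tRNA hydrolase that is built into the large subunit, was at 135 per kb.

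Among the Mrps genes the highest was Mrps21 at 491 per kb, followed by Mrps23 at 400.5, Mrps15 at 391, Mrps7 at 334 and Mrps2 at 329. The lowest were Mrps35 at 42.6, Mrps14 at 54.9, Mrps25 at 56.6, Mrps34 at 61.7 and Mrps10 at 65.2. Mrps12, the counterpart of the bacterial decoding-centre protein S12, was at 257 per kb. The 3 lettered paralogs, all related to bacterial S18, differed in mean normalized count, at 662 for Mrps18a, 362 for Mrps18b and 167 for Mrps18c. Per kb of merged exons they were at 180, 173 and 155 in the same order, but per kb of coding sequence at 1127, 475 and 388, and per kb of the longest transcript at 298, 335 and 203, so their order and spread depended on the length used.

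Mrpl genes were higher than Mrps genes by median, at 211 per kb (range 44.6 to 812) against 124 (range 42.6 to 491), a ratio of 1.7. The Mrps median covers all 29 annotated genes, while the Mrpl median covers 44 of 49, since 5 were not listed and have no value. Apart from its lowest gene, the Mrps range lay within the Mrpl range. The ratio was 1.55 with Mrps18a and Mrps30 counted with the large subunit, and 1.69 without Mrps36, whose product is also known as a component of the oxoglutarate dehydrogenase complex. The 48 members with a bacterial counterpart had a median of 176 per kb and the 25 without one had 154, a ratio of 1.15.

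**Figure D2:**
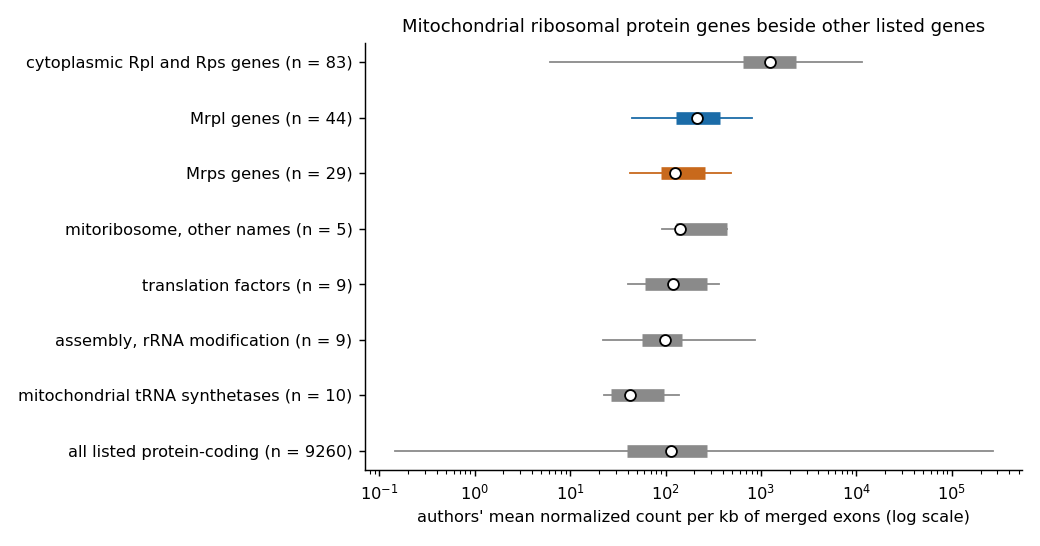
Authors' mean normalized count per kb of merged exons (log scale) of the mitochondrial ribosomal protein genes beside all listed protein-coding genes, cytoplasmic ribosomal protein genes and other lists of mitochondrial translation genes, with medians as white points, quartiles as thick bars and full ranges as thin lines. The medians of 211 for Mrpl and 124 for Mrps genes lie between the 115 of all listed protein-coding genes and the 1258 of the cytoplasmic ribosomal protein genes.

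The length used decides much of the order within the family. Over the 73 members the Spearman correlation of the mean normalized count with merged exon length was 0.308, and that of the value per kb with the same length was -0.717. The last value shares the length with its own denominator. Merged exons include those of rare and retained-intron transcripts, and 70 of the 73 members have more than 1 annotated transcript. The order per kb of merged exons had a Spearman correlation of 0.946 with the order per kb of the longest transcript and 0.533 with that per kb of coding sequence. Mrpl12, Mrpl52 and Mrpl20 were among the 10 highest by all 3 lengths, and Mrps34 and Mrps35 among the 10 lowest.

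**Figure D3:**
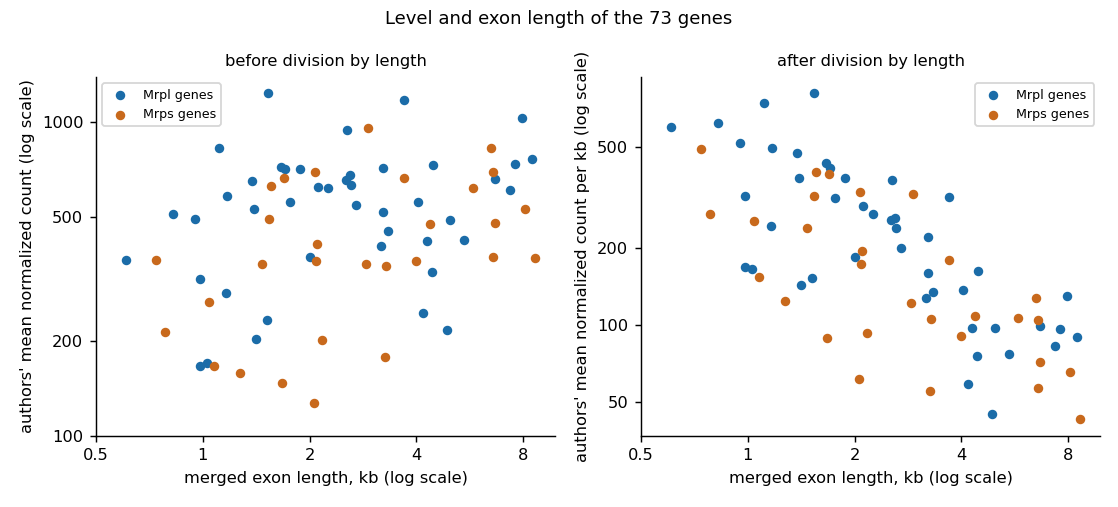
Authors' mean normalized count before (left) and after (right) division by merged exon length, against that length in kb, 1 point a gene, all axes on log scales. Before division the points scatter (Spearman 0.308), and after it they fall with length (Spearman -0.717).

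The cytoplasmic ribosomal protein genes, which build the ribosome of the cytosol, were far higher. The 83 listed genes whose symbols begin with Rpl or Rps and a number had a median of 1258 per kb, 7.42 times the members' median. Without kinases, a binding protein and paralogs that carry such names, 74 genes had a median of 1537, or 9.07 times, and 58 of them lay above Mrpl12. The third quartile was 2.66 times the first in these 74 genes and 3.23 times in the mitochondrial family, so both families were narrower than all listed genes, at 6.96 times.

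Of the 5 other mitoribosomal protein genes, which carry no Mrp name, all 5 were in the D4 table. Their median was 143 per kb, with Aurkaip1 at 442, Chchd1 at 439, Ptcd3 at 143, Dap3 at 130 and Gadd45gip1 at 92.1. Ptcd3 was the only one of them also listed for METTL3, and none was listed for METTL14. Among 19 genes for ribosome assembly and ribosomal RNA modification 8 were in the D4 table, or 42.1%, close to the 40.1% of all annotated protein-coding genes. Their highest level was 867 per kb for C1qbp, a matrix protein, and Ddx28, a helicase, was listed for METTL3 alone, so that the 9 listed genes had a median of 98.1.

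Among 15 translation factors and partners 8 were in the D4 table, or 53.3%, beside the same background of 40.1%. The elongation factors Gfm1 and Tufm were at 363 and 271 per kb, Oxa1l, which inserts new proteins into the inner membrane, was listed for METTL14 alone, and the median of the 9 listed genes was 121. Among 17 mitochondrial aminoacyl-tRNA synthetases 9 were in the D4 table, or 52.9%. Mars2 was listed for METTL14 alone, and the 10 listed synthetase genes had a median of 42.1 per kb. The shares of these 3 lists thus lay near or above the background, and how they differ from the 93.6% of the Mrp genes was not tested.

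The members lie on 17 chromosomes, with 11 on chromosome 11, 8 on chromosome 17 and 6 on chromosome 6. In the GENCODE annotation 18 of the 73, or 24.7%, had the start of an opposite-strand gene within 1000 bases upstream, a head-to-head arrangement. The share was 15.2% among listed protein-coding genes and 10.8% among all annotated protein-coding genes. By these GENCODE starts all 18 lay within 300 bases. None lay between 300 and 1000 bases, where 2.89% of listed protein-coding genes had theirs. With the RefSeq starts given below, some did. The GENCODE shares within 1000 bases were 25% for Mrpl and 24.1% for Mrps genes.

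**Figure D4:**
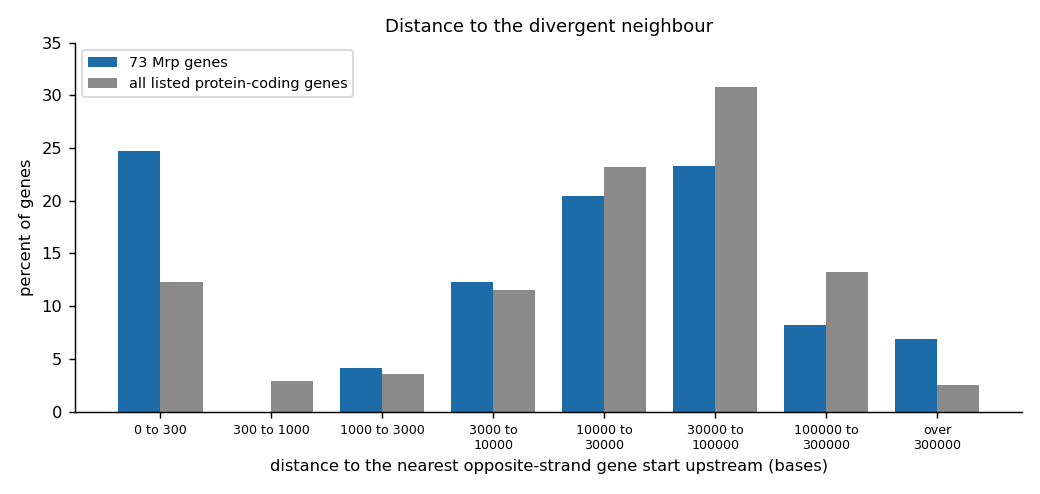
Share of genes (percent) by the distance in bases from the gene's start to the nearest opposite-strand start upstream, for the 73 mitochondrial ribosomal protein genes and all listed protein-coding genes. The first bin, up to 300 bases, holds 24.7% of the members and 12.3% of the listed protein-coding genes.

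In 16 of these pairs the neighbour was protein-coding. Mrpl49 starts 59 bases from Fau, which encodes a ribosomal protein of the cytosol fused to a ubiquitin-like protein, and Mrpl32 starts 75 bases from Psma2, a proteasome subunit gene. Mrps12 starts 172 bases from Sars2, the mitochondrial seryl-tRNA synthetase gene, so this pair joins 2 genes of mitochondrial translation. Mrps27 starts 81 bases from Ptcd2. Of the 16 neighbours 10 were listed, and the member had the higher value per kb in 6 of the 10 pairs. This count depends on the division by length. Mrps18c was above Helq per kb, at 155 against 53.8, but below it in mean normalized count, at 167 against 273. The other listed pairs kept their order.

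The levels on the 2 sides of a pair could be far apart. Fau was at 2225 per kb and Mrpl49 at 378, Psma2 at 467 and Mrpl32 at 97.6. In the opposite direction Mrps12 was at 257 per kb and Sars2 at 51.9, and Mrpl40 was at 316 and Hira, a histone chaperone gene, at 32.5. Mrps27 at 195 and Ptcd2 at 278 were closer. No value per library was used, so whether the genes of a pair varied together was not tested.

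With the starts of the RefSeq promoter table, which also finds genes whose annotated 5′ ends overlap, 24 of 64 members, or 37.5%, had such a neighbour, beside 18.8% of listed protein-coding genes and 12.2% of all promoters. The only pair of 2 members was Mrpl46 and Mrps11, whose starts on chromosome 7 are 42 bases apart, and the sequence shown for Mrpl46 runs across the start of Mrps11. Their mean normalized counts were 204 and 203, and their values per kb 144 and 93.3. Their GENCODE spans overlap and the strand setting of the counting is not given in the sources used here, so reads in the overlap cannot be assigned to one gene with certainty.

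Promoter windows of 250 bases before to 50 bases after the RefSeq start were matched for 64 of the 73 members. Those not matched were Mrpl4, Mrpl13, Mrpl15, Mrpl19, Mrpl38, Mrpl54, Mrps28, Mrps34 and Mrps35. NRF1, the ETS factor GABPA and YY1 are known regulators of nuclear genes for mitochondrial proteins. The ETS core CCGGAAG was in the window of 23 members, or 35.9%, beside 19.2% of listed protein-coding genes and 9.93% of all promoters. The YY1 core AAGATGGC was in 12 members, or 18.8%, beside 4.86% and 3.19%. The NRF1 core GCATGCGC was in 8 members, or 12.5%, beside 5.84% and 3.05%.

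**Figure D5:**
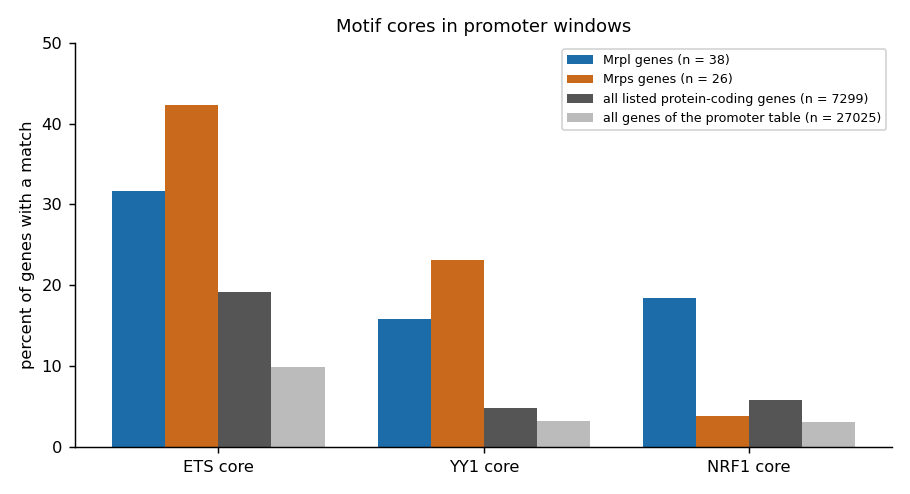
Share of genes (percent) whose promoter window holds the ETS, YY1 or NRF1 core on either strand, for Mrpl genes, Mrps genes, listed protein-coding genes and all genes of the promoter table. Both Mrpl and Mrps bars exceed the listed genes for ETS and YY1, while for NRF1 the Mrpl bar (18.4%) lies above and the Mrps bar (3.85%) below the 5.84% of listed genes.

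At least 1 of the 3 cores was found in 35 members and none in 29, while 8 members held 2 kinds and 0 held all 3. The 8 were Mrpl17, Mrpl22, Mrpl32, Mrpl33, Mrps12, Mrps18a, Mrps18b and Mrps27. How many other genes held at least 1 core or 2 kinds was not computed, so these counts are not read as a trait of the family. Of the 27 ETS matches 16 lay within 100 bases upstream of the start, and 8 of the 12 YY1 matches lay downstream of it. Other genes also held YY1 cores downstream only. The whole window held one in 355 listed protein-coding genes and its upstream part in 160, beside 12 and 4 members. For ETS these counts were 1399 and 1092 listed genes, beside 23 and 16 members. Of the 14 NRF1 matches 9 lay within 100 bases upstream. This core overlaps itself on the opposite strand, so that 1 run of GCGCATGCGC counts as 2 matches, as in the sequences of Mrpl9 and Mrpl32.

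NRF1 cores were in 7 of 38 Mrpl windows and in 1 of 26 Mrps windows, that of Mrps18b. ETS cores were in 31.6% of Mrpl and 42.3% of Mrps windows, and YY1 cores in 15.8% and 23.1%. Of the members also listed for METTL3 or METTL14, Mrps27 held an ETS core beginning 48 bases upstream of the start. Mrps27 also held a YY1 core beginning 15 bases downstream. Mrpl34 held an ETS core beginning 37 bases upstream, and Mrpl47 held none of the 3 cores. Levels overlapped widely between members with and without a core, with medians per kb of 169 and 201 for ETS, 218 and 163 for YY1, and 187 and 168 for NRF1. A match is a run of letters and not a measured binding site.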

How the data were processed

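RNA-seq of C2C12 cells in 4 groups of 2 libraries was used, and the MeRIP-seq libraries were not analysed here. Per the paper's methods the authors aligned reads with hisat2 to GRCm38, counted them with featureCounts on an Ensembl annotation and tested them with DESeq2, keeping genes under a false discovery rate limit. Program versions are not given in the sources used here. The signal used is the mean normalized count deposited by the authors, pooled over libraries that the tables do not name. The tables' remaining columns hold the authors' own fold changes, errors, test statistics and p-values, which were not used. Gene positions and lengths came from GENCODE M21 (GRCm38) for 10282 of the 10289 genes, and promoters from RefSeq (GRCm38.p6). Another annotation release than the authors' can change a length or a start. The RefSeq start was within 100 bases of the GENCODE start in 47 of 67 windows. The largest distance was 17016 bases, so motif windows and GENCODE neighbour counts can rest on different starts of a gene. The 5 processed pseudogenes of Mrps36, Mrpl23 and Mrpl48 could share reads with these genes. Named were members listed for METTL3 or METTL14, the 5 highest and 5 lowest of each name group, lettered paralogs, members of counts of 5 or fewer and list genes. Further members were named after their values were seen, for their roles, neighbours or motifs. The members and lists were chosen with earlier results of these data known. The lists' 3 motif cores were searched on both strands. The counting of neighbours and motifs was tested on simulated data. Planned protein features were not computed. Python 3.11.15, pandas 2.3.3, NumPy 2.4.6, SciPy 1.17.1 and matplotlib 3.10.9 were used.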

Additional observations from a re-analysis of the deposited data

How the results depend on the processing

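Of 35 alternative values, 26 stayed within 1.5 times the reported value on the same side, 8 moved further and 1 reversed. The members' median level was 254 per kb of the longest transcript, 730 per kb of coding sequence and 491 without length, against 169 per kb of merged exons. Without length the members' median was 0.9 times that of all listed protein-coding genes, where the reported ratio was 1.48, since the members' merged exons are shorter (median 2533 bases against 4538). The share with head-to-head neighbours was 37.5% of 64 members with RefSeq starts, which include overlapping ends, against 24.7% of 73 with GENCODE starts. Among listed protein-coding genes these shares were 18.8% and 15.2%. The ETS share was 56.2% with the shorter CGGAAG and 17.2% with the longer CCGGAAGT, beside 33.5% and 8.6% of listed protein-coding genes. The YY1 share was 6.25% in the upstream part of the window and 12.5% with the longer AAGATGGCG, beside 2.19% and 3.25% of those genes. The ratio of Mrpl to Mrps medians stayed between 1.39 and 1.7. The RefSeq starts, the moves of Mrps36, Mrps18a and Mrps30, the bacterial counterparts and the shortened cytoplasmic list were chosen after seeing the data. No paired analysis was possible because the pooled means carry no replicate and no test was made, and for the same reason no library could be left out.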
